A study of Mus musculus with 6 samples.

Results

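The tight junction genes followed here were Cldn3, Cldn4, Cldn6, Cldn7, Ocln, Tjp1, Tjp3, Cgn and F11r, 9 of the 19057 genes that the array annotation names by a single symbol. They were chosen by symbol with earlier results of these data known, so counts over them are descriptive. All 10 probes annotated to them were examined, on 1 Illumina bead array each at 0, 2, 4, 8, 12 and 24 h. The cells were of E14, a mouse embryonic stem cell line, and carried Snail-ER, the repressor Snail joined to an estrogen receptor domain, which 4-hydroxytamoxifen (4-OHT) is given to bring into the nucleus. All 6 arrays came from cells with the fusion, grown with serum and the self-renewal cytokine LIF. The 5 later arrays had 4-OHT for the stated hours and the 0 h array had none. No cells without the fusion, and no untreated cells kept for the same hours, were analysed here, so time in culture, 4-OHT and the fusion cannot be told apart. Whether each array had a culture of its own is not given in the labels.

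Tight junctions seal the space between neighbouring epithelial cells near their apical side. Claudins build the sealing strands and set which ions pass, occludin (Ocln) joins them in the strands, and the adhesion molecule JAM-A (F11r) lies beside them in the membrane. The scaffold proteins ZO-1 (Tjp1) and ZO-3 (Tjp3) and the adaptor cingulin (Cgn) link the strands to actin. Snail binds E-box sequences and is known to repress claudin genes, occludin and E-cadherin in epithelial cells.

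Because Snail binds the E-box CAGGTG, RefSeq promoter windows of the members were searched for it on both strands (CACCTG on the printed strand is the same box read from the other side). Each window ran from 250 bases before to 50 after an annotated start, in build GRCm38.p6. Windows are printed for Cldn4, the one member that passed the trend test described below, for Cldn6, which also has 2 boxes and did not pass, and for Tjp1, which has none. Boxes are in capitals. They lie at chr5:134946885-134947184 (minus strand), chr17:23679115-23679414 (plus strand) and chr7:65371195-65371494 (minus strand), in that order.
Cldn4: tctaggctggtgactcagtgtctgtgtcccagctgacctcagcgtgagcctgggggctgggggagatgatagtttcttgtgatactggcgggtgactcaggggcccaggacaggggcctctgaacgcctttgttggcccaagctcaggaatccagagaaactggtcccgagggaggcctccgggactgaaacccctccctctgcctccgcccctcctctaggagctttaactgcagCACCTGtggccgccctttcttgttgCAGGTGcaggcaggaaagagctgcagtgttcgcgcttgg
Cldn6: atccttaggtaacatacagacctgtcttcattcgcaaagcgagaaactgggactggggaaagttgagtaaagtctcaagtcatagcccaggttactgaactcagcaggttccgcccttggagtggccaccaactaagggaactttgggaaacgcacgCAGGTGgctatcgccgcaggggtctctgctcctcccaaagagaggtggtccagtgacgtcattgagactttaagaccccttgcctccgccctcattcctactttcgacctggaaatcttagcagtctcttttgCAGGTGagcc
Tjp1: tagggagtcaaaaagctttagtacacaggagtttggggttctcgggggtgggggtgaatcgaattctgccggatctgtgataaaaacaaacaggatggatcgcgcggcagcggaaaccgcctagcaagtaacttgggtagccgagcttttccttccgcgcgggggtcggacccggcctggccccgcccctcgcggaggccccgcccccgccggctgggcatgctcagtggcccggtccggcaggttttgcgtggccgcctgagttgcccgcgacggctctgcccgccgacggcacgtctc
The Cldn4 boxes begin 14 bases before the start and at base 12 after it, counting the start as base 1. Those of Cldn6 begin 93 bases before the start and at base 41. All 9 members had at least 1 window, 12 in all. Of these, 9 held at least 1 box (75.0%) and 4 held 2 (33.3%). Among all 32851 windows of the same length, 20.2% held at least 1 box and 2.88% held 2 or more. The Ocln windows overlap and share a box, so the 12 windows are not independent. The members include claudin genes and occludin, which Snail is known to repress, so their choice may itself favour boxes. The difference in shares was not tested. Boxes also lay in windows of Cldn7, Tjp3 and F11r, which did not pass the trend test, and of Cldn3 and Ocln, which could not be tested. The Cgn window held none. A link between boxes and trends was not tested. A match to these letters does not show that Snail binds there.

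Values are the authors' normalized intensities, on a linear scale. Some are negative and all 6 arrays share 1 minimum and 1 maximum, as background subtraction and quantile normalization leave them, but the steps are not given in the sources used here. A probe was called detected on an array where it reached the lowest normalized intensity of any probe with a detection p-value under 0.01 on that array. That level was 60.6, 71.1, 31.4, 62.0, 18.5 and 18.9 in order of time, so dim probes had a better chance at 4, 12 and 24 h. Of the 9 members, 6 were detected on at least 1 array and could be tested. Cldn4 was detected on 5 arrays, Cldn6 and Tjp1 on all 6, F11r on 3, and Cldn7 and Tjp3 on 1 each. Cldn3, Ocln and Cgn were detected on none. The precision is limited by having 1 array per time.

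**Figure D1:**
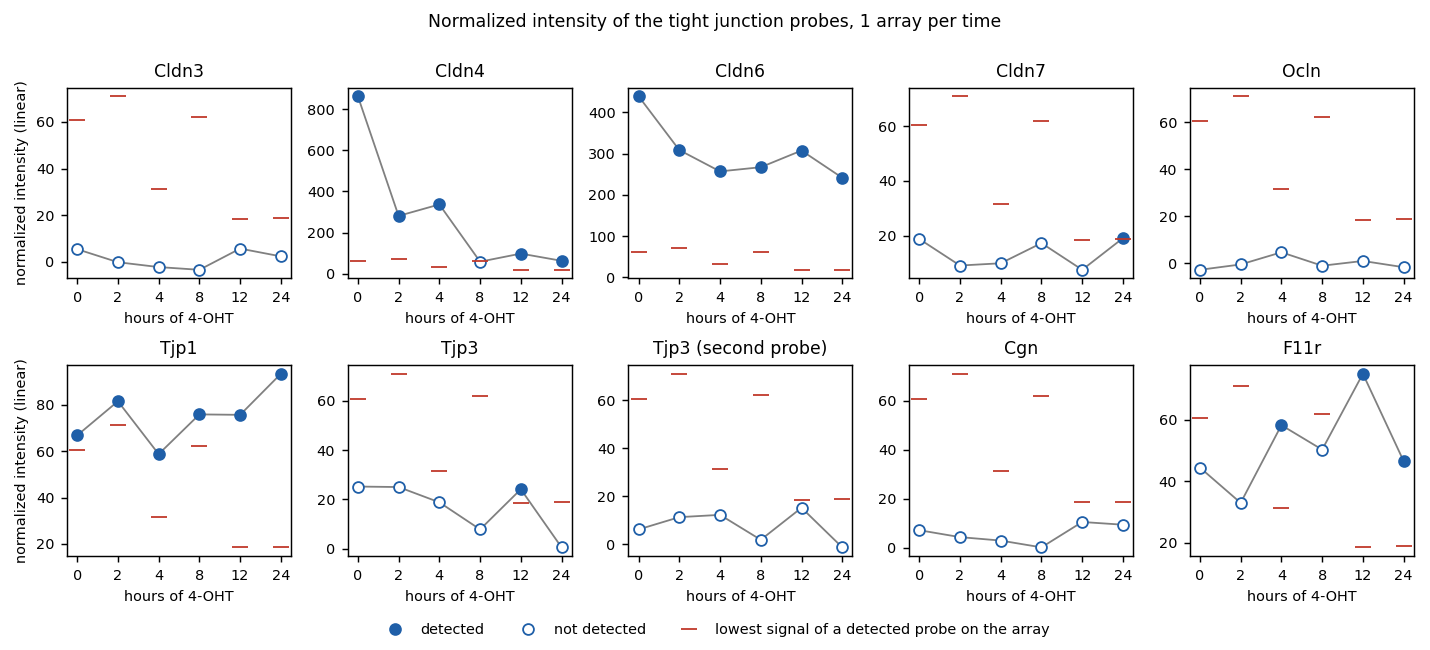
Normalized intensity (linear scale, each panel with its own axis) of the 10 tight junction probes at 0 to 24 h of 4-OHT, 1 array per time, with filled points where the probe was detected, open points where it was not, and dashes at each array's detection level. Cldn4 was highest at 0 h (864) and lay below its 4 h value of 337 on the 3 arrays from 8 h on, while Cldn3, Ocln and Cgn stayed below the dashes on all 6.

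Cldn4 encodes a claudin of tight epithelia. Its normalized intensity was 864, 281, 337, 58.1, 97.5 and 62.4 in order of time. The 0 h value was the highest, those at 2 and 4 h lay next, and those at 8, 12 and 24 h were the lowest. At 8 h the probe missed detection narrowly, with a normalized intensity of 58.1 where 62.0 was needed. Relative to 0 h, with 16 added to each intensity before the ratio, Cldn4 was lower by 2.96-fold at 2 h and by 2.49-fold at 4 h. It was at least 11.3-fold lower at 8 h, 7.76-fold lower at 12 h and lower by 11.2-fold at 24 h. These differences between single arrays carry no error of their own. The scatter of Cldn4 about its line over time was 0.602 (residual SD, log2). The steps from 2 to 4 h and from 12 to 24 h were smaller than that, and those from 0 to 2 h and from 4 to 8 h were larger. The step from the undetected 8 h value to 12 h was close to it. A step between 2 arrays scatters more than 1 array does about a line, so no step was tested by this comparison.

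The position of Cldn4 among all genes was read from the 6556 genes detected at 0 h, with undetected later values set at the detection level where that was higher. Its log2 difference from 0 h was the lowest of all of them at 2 h, the lowest at 8 and 24 h, and the 3rd lowest at 12 h. At 4 h it was the 32nd lowest. The detection level was 71.1 at 2 h and 62.0 at 8 h. Genes dim at 0 h therefore could not fall as far as Cldn4 on those arrays under this rule. The ranks thus depend in part on how bright Cldn4 was at 0 h. The median gene differed from 0 h by between -0.03 and 0.01 on the log2 scale at these times. At 2 h, 0.15% of 6674 genes were at least 2-fold lower than at 0 h, counting those detected at 2 or 0 h, and Cldn4 was 1 such gene among 3 members counted. The share of genes that low was 0.869%, 2.94%, 4.28% and 4.2% on the 4, 8, 12 and 24 h arrays, and at each of these times Cldn4 was again the single member, of 4, 3, 5 and 5 detected. Among members, 0 showed a 2-fold higher value at any time, against 0.03%, 0%, 1.15%, 1.25% and 1.29% of all genes in order of time. In these counts too, undetected values were set at the detection level where that was higher. With a level of 71.1 at 2 h and 18.5 at 12 h, fewer dim genes could count as 2-fold lower at 2 h. The shares are therefore not directly comparable between times.

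Over the whole series a trend was tested by fitting the log2 value against log2(hours + 1) with limma, across 9432 genes with Benjamini-Hochberg adjustment. The fitted change is that of the line between 0 and 24 h, and a gene passed at an adjusted p under 0.05. Cldn4 fell, with a fitted change of -3.71 ± 0.49 (SE, log2, n = 6 arrays; limma adjusted p = 0.0037). Of the 6 tested members it was the 1 that fell, against 6.18% of all genes, and none rose, against 6.24% of all genes. At an unadjusted limma p under 0.05 there were 3 lower members (Cldn4, Cldn6 and Tjp3), against 13.3% of all genes, and 0 higher, against 16.7% of all genes. Tjp3 was detected at 12 h alone, so its lower trend lies mostly between undetected values. The median fitted change was -0.36 over the 6 tested members, which include Tjp3 and Cldn7, each detected on 1 array. It was 0.06 over all genes. The Cldn4 call was lost against untransformed hours (-3.02 ± 0.81; limma adjusted p = 0.088), a scale on which 13 of all genes fell and 22 rose. It was also lost when all 19057 genes were fitted without regard to detection (limma adjusted p = 0.16), where no gene passed.

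**Figure D2:**
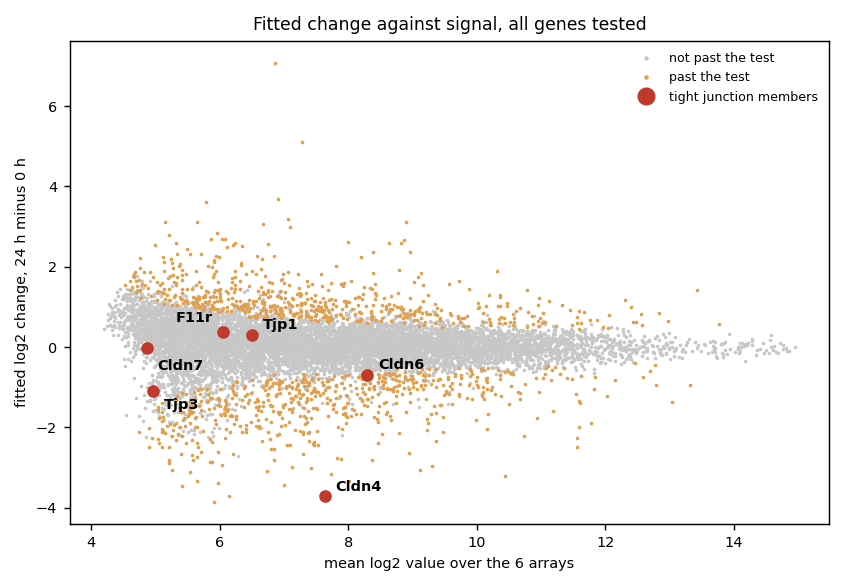
Fitted log2 change from 0 to 24 h against mean log2 value for the 9432 genes tested (small points, coloured where past the test), with the 6 tested tight junction members labelled. Cldn4 lies at -3.71, near the lower edge of all genes, and Cldn6 at -0.69 lies among the genes that did not pass.

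Cldn6 encodes a claudin that is abundant in embryonic epithelia and in pluripotent cells. Its normalized intensity was 439, 308, 257, 267, 307 and 241 in order of time. All 5 induced arrays lay below the 0 h array, at 1.40- to 1.77-fold lower, and among them the order did not follow time. The fitted change was -0.69 ± 0.21 (SE, log2, n = 6 arrays), which did not pass (limma adjusted p = 0.057). Much of it rested on the first array: without 0 h the fitted change was -0.29 ± 0.29 (limma adjusted p = 0.58). Without the 4 h array it passed, at -0.71 ± 0.20 (limma adjusted p = 0.043). At 2 h the log2 difference of Cldn6 was the 159th lowest of the 6556 genes detected at 0 h, and at 24 h the 502nd lowest.

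Cldn7, a claudin of many epithelia, gave 18.8, 9.03, 9.86, 17.2, 7.46 and 19.1 in order of time. It was detected at 24 h, on one of the arrays with the narrowest background, while its value of 18.8 at 0 h was not detected there. The trend was -0.03 ± 0.40 (SE, log2) with a limma adjusted p of 0.97, and its sign turned under several settings. Cldn3, a claudin whose gene lies next to Cldn4 in the RefSeq order of GRCm38.p6, ranged from -3.41 to 5.70 and was below detection on all 6 arrays. No level or change of Cldn3 could therefore be read, and its neighbour's fall could not be compared with it.

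Tjp1, the ZO-1 scaffold gene, gave 66.8, 81.5, 58.7, 75.8, 75.6 and 93.3 in order of time. The induced arrays lay on both sides of the 0 h value, with 4 h below it and the other 4 above. The fitted change was 0.31 ± 0.24 (SE, log2, n = 6 arrays; limma adjusted p = 0.43). The brighter Tjp3 probe, for ZO-3, gave 25.2, 25.0, 18.8, 7.79, 24.1 and 0.51 and was detected at 12 h alone. Its trend was -1.09 ± 0.46 (SE, log2) with a limma adjusted p of 0.14, mostly between values that were not detected. It was -0.50 without the 24 h array, and -0.39 with 64 or -3.23 with 1 added in place of 16. The other Tjp3 probe ranged from -1.40 to 15.1 and was not detected on any array. Cgn, for cingulin, ranged from 0.185 to 10.5 and was not detected either.

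F11r, for JAM-A, gave 44.5, 33.0, 58.3, 50.3, 75.0 and 46.6 in order of time, and was detected at 4, 12 and 24 h. The arrays on which it was detected are those with the lowest detection levels. Its trend was 0.37 ± 0.33 (SE, log2) with a limma adjusted p of 0.48. Ocln, for occludin, ranged from -2.86 to 4.59 and was not detected on any array, so these arrays do not show whether it changed.

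**Figure D3:**
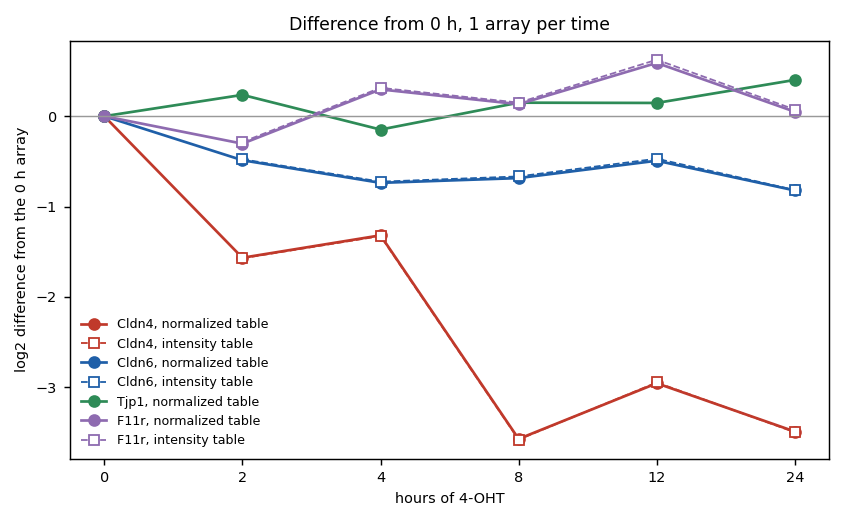
Log2 difference from the 0 h array at 2 to 24 h of 4-OHT for Cldn4, Cldn6, Tjp1 and F11r, 1 array per time, from the normalized table (filled, solid) and, for the 3 genes it holds, from the intensity table after separate background correction (open, dashed). Cldn4 lay at -1.57 at 2 h and -3.49 at 24 h, and both tables gave nearly the same values.

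The intensities before normalization, which a second table holds for all members but Tjp1 and Tjp3, were processed separately. After normexp background correction and quantile normalization the Cldn4 trend was -3.71 ± 0.50 (SE, log2), with a limma adjusted p of 0.0042. Cldn4 was again the 1 member past the test there, where 6.4% of 6137 genes fell and 6.11% rose. Cldn6 gave -0.68 ± 0.21 (limma adjusted p = 0.063) and F11r 0.39 ± 0.32 (limma adjusted p = 0.44).

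Whether the members' trends differed from each other was tested on the log2 difference of 2 members, by an exact 2-sided permutation of the 6 times over the arrays (720 orders, smallest p 0.0028). Cldn6 and Tjp1, the pair detected on all 6 arrays, differed in fitted change by -0.99 (Cldn6 minus Tjp1, log2; exact permutation p = 0.028). That call was lost in 5 of 10 alternatives, among them leaving out the 0 h array (exact permutation p = 0.18) and untransformed hours (exact permutation p = 0.075). Pairing all 6 tested members, a choice made after the values were seen, gave 15 pairs. After Benjamini-Hochberg adjustment 0 of the 15 passed (smallest adjusted p = 0.078 by the exact permutation test), and 8 had an unadjusted p under 0.05. Cldn4 minus Cldn6 was -3.02 (exact permutation p = 0.021, adjusted 0.078) and Cldn4 minus Tjp1 was -4.02 (exact permutation p = 0.0125, adjusted 0.078).

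Of 20 other claudins listed, 16 had a probe and 4 were detected on at least 1 array. By limma none rose and none fell, with 2 of the 4 higher and 0 lower at an unadjusted p under 0.05, where 16.7% of all genes were higher and 13.3% lower. Against the rank of time, or without the intensity trend in eBayes, 1 rose. Their median fitted change was 0.51. Cldn12, detected on all 6 arrays, had 0.49 ± 0.20 (limma adjusted p = 0.14). Cldn9 had 0.53 ± 0.31, and Cldn10 and Cldn5, each detected on 1 array, had 1.19 ± 0.38 and -0.22 ± 0.39. Cldn10, 1 of the 2 higher genes, was detected at 24 h alone, where it was highest. It entered the test, and the median, through that array.

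Of 33 other tight junction genes listed, 31 had a probe and 21 were tested, of which 2 rose and 1 fell, against 6.24% and 6.18% of all genes, shares near those of the list. The median fitted change was 0.09. All 3 calls were lost without the 0 h array, with the spread of each array's background signal as a covariate, against untransformed hours and without a detection filter. Jam2, which encodes the junctional adhesion molecule JAM-B and is related to F11r, fell. Its normalized intensity was 226, 207, 156, 55.8, 42.3 and 68.2 in order of time, not detected at 8 h. The trend was -2.15 ± 0.44 (SE, log2; limma adjusted p = 0.013). Unlike Cldn4, with -1.57 at 2 h, Jam2 differed from 0 h by -0.12 at that time on the log2 scale, a contrast between single arrays that was not tested. Pard6g, which encodes a PAR6 protein of the apical polarity complex, rose, with 462 at 24 h against 216 at 0 h (1.05 ± 0.17; limma adjusted p = 0.0060). Amotl1, which encodes an angiomotin-family protein, rose, with 181 at 24 h against 93.7 at 0 h (0.91 ± 0.19; limma adjusted p = 0.015). Jam3, which encodes JAM-C, and Marveld2, which encodes tricellulin, were not detected on any array, so no level or change of either could be read.

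All 11 adherens junction genes listed had a probe and 9 were tested. By limma none rose and none fell, with 1 higher and 2 lower of the 9 at an unadjusted p under 0.05, against 16.7% and 13.3% of all genes. Their median fitted change was -0.04. Without the 24 h array 1 rose and 1 fell. Cdh1, for E-cadherin, gave 1064, 973, 980, 1049, 1080 and 882 in order of time (-0.13 ± 0.16; limma adjusted p = 0.60). The Epcam probe, for an adhesion protein that binds claudin-7, was not detected on any array, so no level or change of Epcam could be read.

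**Figure D4:**
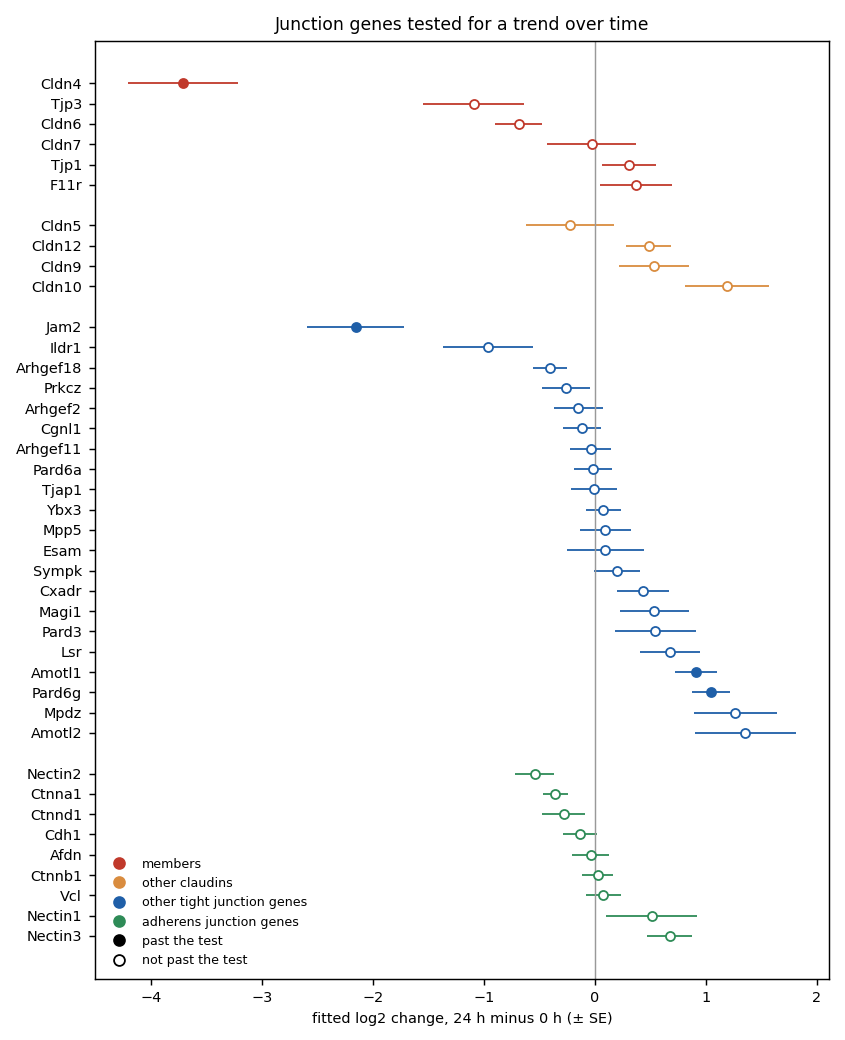
Fitted log2 change from 0 to 24 h (points, with SE bars) for the tested tight junction members, other claudins, other tight junction genes and adherens junction genes, with filled points where the gene passed the limma test. Cldn4 and Jam2 lie lowest, at -3.71 and -2.15, and the 9 adherens junction genes lie between -0.54 and 0.68.

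The genes closest to each member in time course were ranked by the root-mean-square difference of their 5 log2 differences from 0 h. For Cldn4, in a comparison added after the values were seen and run over 6331 genes detected on at least 5 arrays, the closest were Kit (0.69), Mras (0.70), Tcl1 (0.84), Slc66a2 (0.91) and Dnajc6 (0.93). At 2 h their log2 differences from 0 h were between -0.89 for Mras and -0.30 for Dnajc6. All of their distances were larger than those given next for Cldn6 and Tjp1. They are the nearest genes found rather than close matches to Cldn4. For Cldn6, over 5917 genes detected on all 6 arrays, the closest were Ube2t (0.085), Reep4 (0.088), Zfp710 (0.12), Prxl2a (0.12) and Wdr5 (0.13). Of these Zfp710 and Wdr5 fell (limma adjusted p = 0.010 and 0.020). For Tjp1 they were Myg1, Nop56, Arpc2, Pkig and Ppp1r8, at 0.041 to 0.082, none of which passed.

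All 8 embryonic stem cell markers, Pou5f1 and Sox2 among them, were detected on every array, and Esrrb, Zfp42 and Nanog fell while Utf1 rose. Their summed normalized intensity was 26602, 22799, 22764, 17230, 17117 and 18747 in order of time. Of 8 fibroblast feeder markers, Thy1 and Dcn were detected and the collagen genes Col1a1, Col1a2 and Col3a1 were not, with a sum of 126 to 214. Trophectoderm, the outer epithelium of the blastocyst, forms tight junctions. Of its 7 markers 5 were tested: Krt8, Krt18 and Eomes rose, Tfap2c fell, and Gata3 did not pass, while Cdx2 and Elf5 were not detected. Over all genes 6.24% rose and 6.18% fell. Krt18 and Eomes were detected at 12 and 24 h alone, the arrays with the lowest detection levels, so they entered the test through the arrays on which they were highest. The summed trophectoderm level was 638, 531, 508, 421, 438 and 592 in order of time. Tfap2c alone made up 479 of this sum on the first array, and 131 of it on the 8 h array. The dip in the sum therefore follows Tfap2c and hides the rise of Krt8, which was detected on all 6 arrays. What part the trophectoderm level had in the Cldn4 result was not tested. Dab2 alone was detected of 6 primitive endoderm markers, with 84.8 at 24 h against 46.1 at 0 h, and it did not pass (limma adjusted p = 0.057). In bulk samples, fewer cells with Cldn4 and less Cldn4 RNA per cell cannot be told apart.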

How the data were processed

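RNA labelled as polyadenylated was profiled on Illumina bead arrays, 1 per time. The authors deposited, per the file headers, a table of probe intensity with a detection p-value for each array, not normalized, which as held here covers 72.4% of probes. Their deposited value table holds normalized intensity for 45281 probes. GenomeStudio is named in the submitters' processing notes, without a version. Background subtraction and quantile normalization are read from its values (negative values, 1 shared minimum and maximum), and the steps are not given in the sources used here. It is the main source because it holds all members.

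Negative values were set to 0, 16 was added and log2 was taken. Folds on this scale understate changes of dim genes. Probes detected on at least 1 array were kept and the brightest per gene used. Of the probes, 34885 had 1 symbol, 18 several and 10378 none, and 34807 were matched by Entrez identifier to RefSeq. Trends were fitted with limma 3.58.1 in R 4.3.3 (lmFit, eBayes with an intensity trend, 2-sided, 4 residual degrees of freedom), a step tested on simulated data. Each p-value rests on how single arrays scatter around a line, and that scatter can be technical. Through eBayes the limma SEs and p-values also draw on the scatter of the other genes fitted. For Cldn4 the SE was 0.49, against 0.57 without the intensity trend and 0.70 without a detection filter. Background SD was 16.1, 14.7, 8.72, 16.0, 4.72 and 4.73 intensity units in order of time.

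Named genes were the members, up to 3 called genes with the largest change per list, Marveld2, Jam2, Jam3, Cdh1 and Epcam, and the 5 genes closest in time course to the 2 members with the largest change among those detected on all 6 arrays. The genes closest to Cldn4, the 4 tested other claudins and the markers outside the top 3 were named after their values were seen. One further gene of that rule is not reported here. Members and lists were chosen with earlier results of these data known. Alternatives covered the source table, the added constant, the detection filter, the time scale, a background covariate, the probe rule, the eBayes setting and leaving out each array.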

Additional observations from a re-analysis of the deposited data

How the results depend on the processing

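The count of members that fell was 1 and became 0 without a detection filter, 0 with probes detected on all 6 arrays (which leaves Cldn4 untested) and 0 against untransformed hours. With each array left out in turn it was 1 to 2. Leaving out an array, the Cldn4 fitted change ran from -4.15 to -3.47 and kept its call each time (largest limma adjusted p 0.046, without 0 h), and with background SD as a covariate it was -5.24 (limma adjusted p = 0.0071). The Cldn6 range was -0.80 to -0.29. Cldn6 minus Tjp1 was -0.87 against untransformed hours (exact permutation p = 0.075), and -1.13 to -0.69 with an array left out. It lost its call without the 0, 4, 8 or 24 h array, with exact permutation p up to 0.18. Without the 4 or 8 h array the difference itself hardly moved, at -0.99 and -0.98. With an array left out there are fewer orders, so the permutation test is coarser. Cldn7 turned positive with the intensity table (0.0036), untransformed hours (0.19), rank of time (0.021) and the background covariate (0.26), and ran from -0.41 to 0.58 with an array left out. F11r turned to -0.059 with the background covariate. The causes were not tested. Counts over all genes moved most: 583 fell and 589 rose, against 0 and 0 without a detection filter, 13 and 22 against untransformed hours, 49 and 31 with the background covariate, and 228 to 662 and 186 to 562 with an array left out. The counts were 393 and 375 in the intensity table, 434 and 354 with probes detected on all 6 arrays, and 357 and 532 without the intensity trend in eBayes. Among other tight junction genes, 0 fell and 0 rose with the background covariate, without a detection filter, against untransformed hours and without 0 h, 0 fell with probes detected on all 6 arrays, 4 rose against the rank of time and 1 rose without 12 h. Among adherens junction genes 1 fell against the rank of time, and 1 rose with probes detected on all 6 arrays. Tjp3 ran from -1.61 to -0.50 with an array left out. No paired analysis was possible because each time has 1 array. Probes near the detection level, Cldn7, Tjp3 and F11r among them, limit what can be read.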
